A study of Mus musculus with 3 samples.

Results

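Thy1, Pdpn, Pdgfra, Pdgfrb, Fap, Cd34, Ly6a, Dpp4, Cd44 and Cd200 encode proteins of the cell surface that are used to recognise and sort fibroblasts. They were followed in tail-tip fibroblasts (TTFs) on day 8 of reprogramming towards pluripotency. The 10 genes were chosen by their known use as surface markers, with earlier results of these arrays in view, among them the ratios of Thy1, Pdpn, Pdgfra and Fap between the old arrays, so their values are given as a description. They are read by 15 of the 39429 probes of a 1-colour mouse oligonucleotide array and are 10 of the 20825 genes that could be named. A probe was assigned to a gene through its RefSeq accession. Of the 10 genes, 9 were well above background on all 3 arrays, and Dpp4 was on none.

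There were 3 groups with 1 array each. The old p16-/- array held cells of mice aged 22 months that lack p16, the old WT array cells of wild-type mice aged 22 months, and the young WT array cells of wild-type mice aged 2 months. Cells of all groups had received the same 4 factors, c-Myc, Klf4, Oct4 and Sox2, and cells without the factors, or from other days, were not analysed here. p16 is a cyclin-dependent kinase inhibitor that is encoded, together with Arf, by Cdkn2a, and the series asks how donor age and loss of p16 bear on reprogramming intermediates. The design text speaks of 2 independent experiments with different donors, and the sources used here do not say how many donors stand behind each array. A tail-tip culture is a mixed primary culture, and a reprogramming culture at this stage holds cells at different steps, so each value is an average over all cells of a dish. In such bulk RNA, fewer cells that express a gene and less RNA per cell cannot be told apart.

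Fibroblasts carry a set of surface proteins that differ with their position in the dermis and their state of activation, and none of these proteins is made by fibroblasts alone. When mouse fibroblasts are reprogrammed, loss of Thy1 is an early and widely used sign that cells have left the fibroblast state, and loss of Cd44 is known as a later one. Thy1 is also a marker of T cells and neurons, Cd34 and Ly6a (Sca-1) of blood-forming progenitors and endothelium, Pdpn of lymphatic endothelium, and Cd44 of leukocytes.

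With 1 array per group there was no spread between biological replicates, no test was run, and precision is limited by there being 3 arrays. Signals are background-subtracted linear intensities (the processed signal of the scanner software), and a ratio is a difference of log2 signals after each array's 75th percentile had been subtracted. These percentiles were 2071 on old p16-/-, 2061 on old WT and 2151 on young WT. Spot-to-spot error was read from 399 probes that were printed 10 times on each array. The median SD of their log2 signal was 0.0546, 0.0571 and 0.0549 in the same order, which gives a ratio of single spots an SD of 0.079 (old p16-/- over old WT), 0.0793 (old WT over young WT) or 0.0774 (old p16-/- over young WT) log2 units. This error covers the array measurement and not the difference between mice or dishes. Genes were described by whether they differed at least 2-fold (1 log2 unit). For the labelled cell type, 20 genes of fibroblast identity were read, such as the collagens Col1a1 and Col1a2 and the intermediate filament gene Vim. All 20 were well above background on each array. So were 12887 of the 20825 named genes, so this presence does not set fibroblasts apart from other cell types.

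Between the old arrays the surface markers parted into 3 sets. Cd200, Pdgfra and Fap were at least 2-fold higher on old p16-/- than on old WT, Thy1 and Pdpn were at least 2-fold lower, and Cd34, Ly6a, Cd44 and Pdgfrb lay within 2-fold. Over all 14691 genes counted in that comparison, 5.85% passed 2-fold upwards and 6.63% downwards. The median log2 ratio of the 9 genes was -0.09, against 0.02 for all genes counted, while their median absolute log2 ratio was 1.5, against 0.24. Because Thy1, Pdpn, Pdgfra and Fap were picked with these ratios known, these counts and medians carry no weight beyond description. Between the WT arrays, old over young, 0 of the 9 genes passed 2-fold in either direction, where 2.94% of 14546 genes did so upwards and 3.16% downwards.

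**Figure D1:**
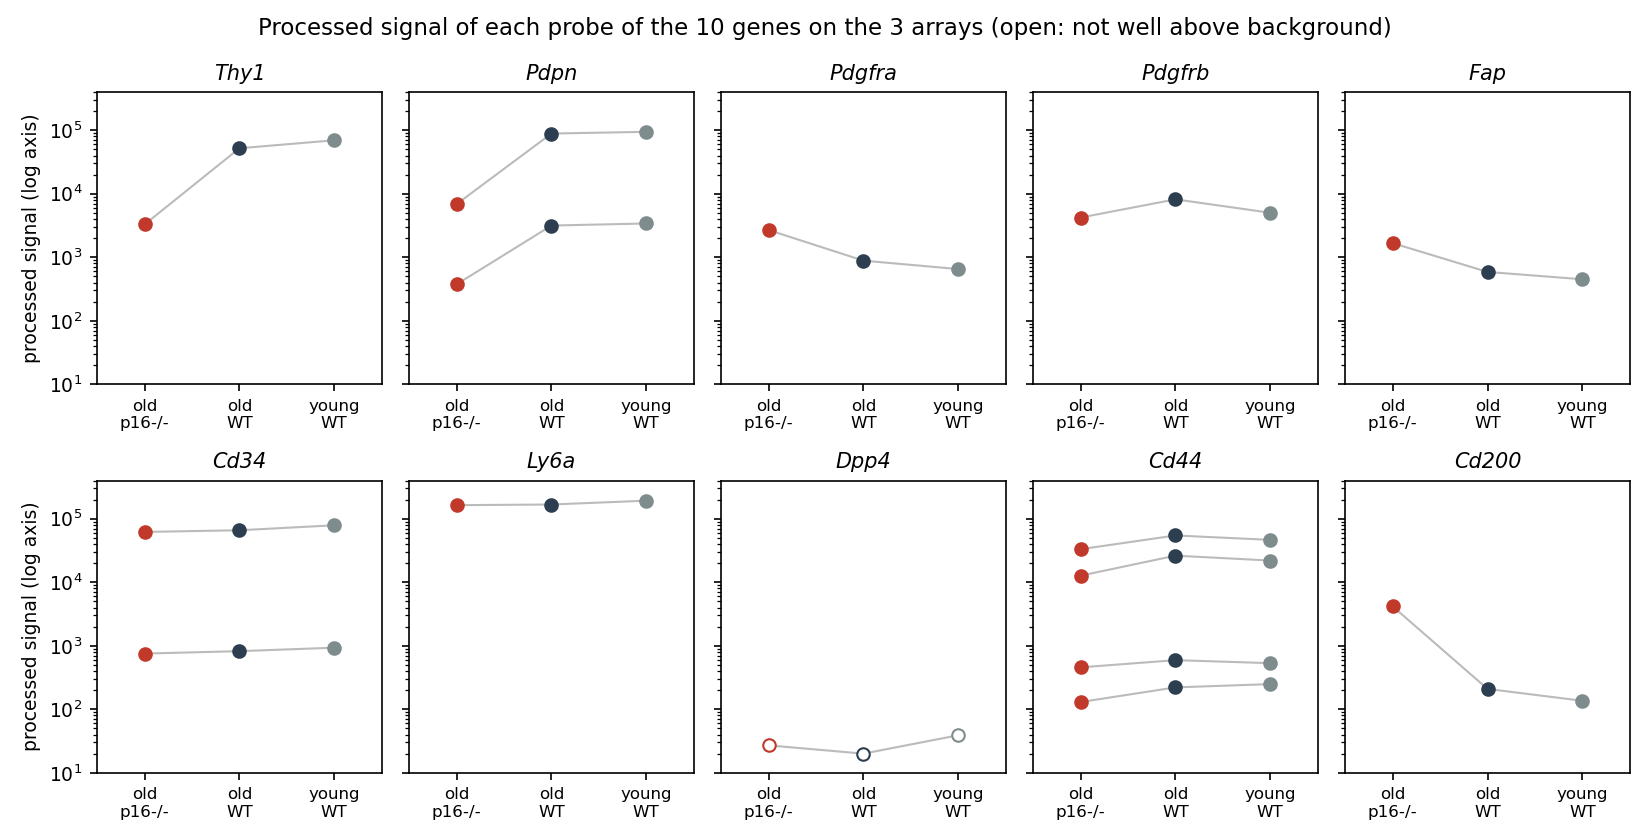
Processed signal (log axis) of every probe of the 10 genes on the old p16-/-, old WT and young WT arrays, 1 panel per gene. Each point is 1 probe on 1 array, grey lines join the same probe across arrays, and open points (Dpp4) were not well above background. Thy1 and both probes of Pdpn are lower on old p16-/- than on both WT arrays, and Pdgfra, Fap and Cd200 are higher.

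Thy1 (CD90) is a small glycoprotein of the immunoglobulin superfamily that is held in the membrane by a lipid anchor and binds integrins. Its processed signal was 3287 on old p16-/-, 52045 on old WT and 69467 on young WT. The old p16-/- array thus stood far below both WT arrays, which lay close to each other. The log2 ratio of old p16-/- over old WT was -3.99, a 15.9-fold lower signal, and only 20 of the 14691 genes counted had a lower ratio. Old p16-/- over young WT was at -4.35 (20.4-fold lower). Old WT over young WT was at -0.35 (1.28-fold lower), which is larger than the spot-to-spot error and small beside the other ratios. Thy1 was read by 1 probe, printed once on each array.

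Pdpn (podoplanin, gp38) is a mucin-type membrane glycoprotein that binds the platelet receptor encoded by Clec1b and links to the cytoskeleton through ezrin and moesin. Its brighter probe had a signal of 6874 on old p16-/-, 88662 on old WT and 94401 on young WT. The second, dimmer probe had 375 on old p16-/-, 3156 on old WT and 3402 on young WT. Both probes placed old p16-/- far below the WT arrays and placed the WT arrays side by side. The log2 ratio of old p16-/- over old WT was -3.70 by the brighter probe and -3.08 by the dimmer one, 13- and 8.45-fold lower signals. Old p16-/- over young WT was at -3.73 and -3.13 by these probes. Old WT over young WT was at -0.03 and -0.05, within the spot-to-spot error.

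Cd200 (OX2) is a membrane glycoprotein of the immunoglobulin superfamily whose receptor, encoded by Cd200r1, sits on myeloid cells and dampens their activation. Its signal was 4165 on old p16-/-, 209 on old WT and 136 on young WT. The direction was opposite to that of Thy1 and Pdpn, and of similar size. The log2 ratio was 4.31 for old p16-/- over old WT (19.8-fold higher) and 4.99 for old p16-/- over young WT (31.7-fold higher). In the first of these comparisons 23 of 14691 genes had a higher ratio, and in the second 11 of 14281. Old WT over young WT was at 0.68 (1.6-fold), at signals so low that background correction moved the value: with another background model it was 0.34, and old p16-/- over old WT was then 3.82. The gene was read by 1 probe printed once, and its receptor gene Cd200r1 stood well above background on young WT alone, with a signal of 63.

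Pdgfra and Pdgfrb encode the receptor tyrosine kinases for platelet-derived growth factors (PDGFs), which drive growth and migration of mesenchymal cells. Pdgfra was read by a probe printed 10 times, so its technical spread is known directly. The 10 spots ranged from 2584 to 2796 on old p16-/- (median 2672), from 822 to 944 on old WT (median 886) and from 625 to 748 on young WT (median 640). No spot of one array reached the range of another. The SD over spots was 0.035, 0.052 and 0.076 log2 units on old p16-/-, old WT and young WT. The log2 ratio was 1.59 for old p16-/- over old WT (3.02-fold higher), 2.10 for old p16-/- over young WT (4.28-fold higher) and 0.50 for old WT over young WT (1.42-fold higher).

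**Figure D2:**
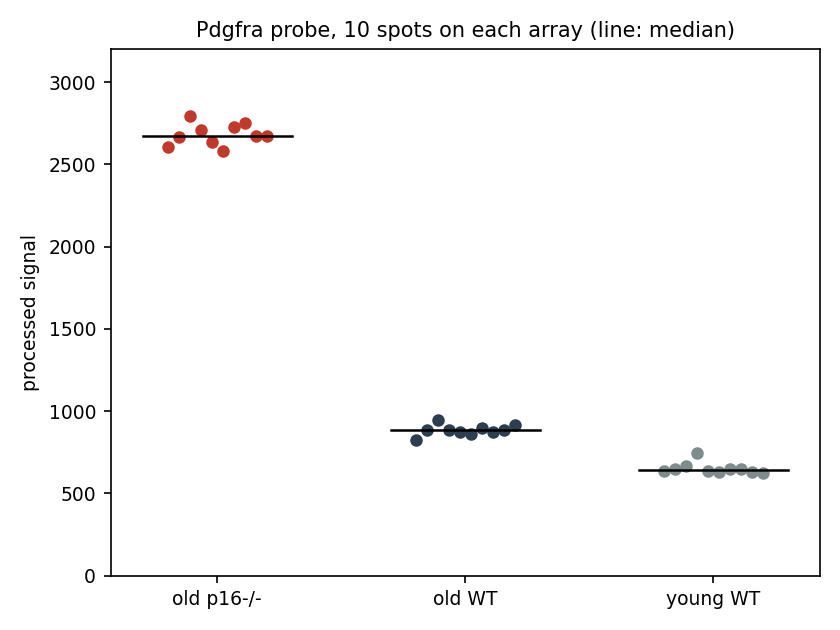
Processed signal (linear axis from 0) of the 10 spots of the Pdgfra probe on the old p16-/-, old WT and young WT arrays, with the median as a line. The spots are repeats of 1 hybridised sample and show the measurement error only; old p16-/- lies between 2584 and 2796, old WT between 822 and 944, and young WT between 625 and 748.

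Pdgfrb had another order. Its signal was 4219 on old p16-/-, 8161 on old WT and 5013 on young WT, so old WT was the highest and the other arrays were near each other. The log2 ratio of old p16-/- over old WT was -0.96 (1.94-fold lower), just inside the 2-fold limit, and -1.01 after cyclic loess normalization. Old WT over young WT was at 0.76 (1.7-fold higher) and old p16-/- over young WT at -0.19 (1.14-fold lower). The receptors thus lay on opposite sides of 0 between the old arrays and on the same side between the WT arrays.

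Among 7 genes of PDGF ligands and their regulators, 1 was at least 2-fold higher on old p16-/- than on old WT and 2 were at least 2-fold lower. Over all genes counted, 5.85% were higher and 6.63% lower by that limit. The median log2 ratio of the 7 was -0.14. Pdgfrl, which encodes a secreted protein that resembles the extracellular part of a PDGF receptor, had a signal of 24740 on old p16-/-, 3434 on old WT and 3614 on young WT, a log2 ratio of 2.84 between the old arrays. The ligand gene Pdgfd had 314, 1271 and 1186 on these arrays, with a ratio of -2.02, and the ligand gene Pdgfb was at -1.20. A second probe of Pdgfb was not well above background. The ligand genes Pdgfa and Pdgfc were at -0.14 and -0.04. Between the WT arrays none of the 7 was 2-fold apart, where 2.94% of all genes were higher and 3.16% lower on old WT.

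Fap and Dpp4 encode membrane serine proteases of 1 family that cleave after proline. Fap is a marker of activated fibroblasts, and Dpp4 (CD26) marks fibroblasts of the papillary dermis and of the adventitia in mouse skin. Fap had a signal of 1668 on old p16-/-, 587 on old WT and 450 on young WT. The log2 ratio was 1.5 for old p16-/- over old WT (2.83-fold higher), 1.95 for old p16-/- over young WT (3.85-fold higher) and 0.45 for old WT over young WT (1.36-fold higher). Fap and Pdgfra thus kept the same order of arrays and nearly the same ratios. Dpp4 had signals of 27, 20 and 39 on old p16-/-, old WT and young WT, where the lowest signals among probes called well above background were 46.9, 35.7 and 55.4. No ratio is given for it. The other listed genes of proteases that cleave after proline, Dpp7, Dpp8, Dpp9 and Prep, were at 0.16, 0.10, 0.04 and 0.11 for old p16-/- over old WT.

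Fap and Dpp4 lie next to each other on chromosome 2, with the glucagon gene Gcg between them. Gcg did not stand well above background on these arrays. On the other side of Fap lies Ifih1, the gene of an interferon-inducible sensor of double-stranded RNA, with a signal of 372 on old p16-/-, 3196 on old WT and 1569 on young WT. Its log2 ratio of old p16-/- over old WT was -3.11, opposite in sign to that of its neighbour Fap. The genes on the array that flank Thy1 on chromosome 9, Nectin1 and Usp2, were at 0.12 and -0.94 for the same comparison, and those that flank Pdpn on chromosome 4, Prdm2 and Lrrc38, at 0.08 and -0.39. Gsx2 and Kit, around Pdgfra on chromosome 5, and Btla and Gm609, around Cd200 on chromosome 16, reached that level on no array. The neighbours of Cd200 and Ifih1 were looked up after their values had been seen.

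Cd34 and Ly6a mark progenitor cells of several tissues, and on fibroblasts they are found in the adventitia and the deeper dermis. Cd34 encodes a sialomucin. Its brighter probe had a signal of 61989 on old p16-/-, 65833 on old WT and 78888 on young WT, and the dimmer probe had 753, 822 and 932 in that order. The log2 ratio of old p16-/- over old WT was -0.09 by the brighter probe and -0.13 by the dimmer one. Old p16-/- over young WT was at -0.29 and -0.25 by these probes. Ly6a, which encodes a lipid-anchored protein of the Ly6 family, had 163509 on old p16-/-, 167535 on old WT and 192379 on young WT, without reaching saturation. Its log2 ratio was -0.04 for old p16-/- over old WT and -0.18 for old p16-/- over young WT. After quantile normalization between arrays, Cd34 and Ly6a were both at -0.18 for old p16-/- over old WT. Thus the lipid-anchored Thy1 and Ly6a differed widely in their ratios on the same arrays. The Ly6 relatives Ly6c1 and Ly6e were at -0.07 and -0.45 for old p16-/- over old WT. Ly6d was at 1.49 with a signal of 535 on old p16-/-, and Ly6k was higher by a bound of 1.22. Podxl, which encodes a relative of Cd34, was at -0.32, and Podxl2 was at -1.82 with a signal of 281 on old WT.

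Cd44 is the main receptor for hyaluronan, a polysaccharide of the matrix, and occurs in many splice forms. It was read by 4 probes, all well above background on all arrays. The brightest had a signal of 33152 on old p16-/-, 54515 on old WT and 46471 on young WT, a log2 ratio of -0.73 between the old arrays (1.65-fold lower). The next had 12697, 26219 and 21954 in that order, a ratio of -1.05 (2.08-fold lower). The dimmer probes gave -0.38 and -0.77. All 4 probes were thus lower on old p16-/- than on old WT, and they disagreed on whether the difference passed 2-fold. Old WT over young WT was at 0.29, 0.32, 0.22 and -0.11 by these probes, from the brightest to the dimmest. The sources used here do not say which splice forms the probes detect.

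Of 14 genes that make, bind or break down hyaluronan or tie Cd44 to the cytoskeleton, 13 were counted, and their median log2 ratio of old p16-/- over old WT was -0.05. Tnfaip6, which encodes a hyaluronan-binding protein, was at 2.46, with signals of 526 on old p16-/- and 95 on old WT, but a second probe gave -1.71. Cemip, needed for hyaluronan breakdown, was at -1.74 by its brighter probe and -0.58 by the other. The synthase genes Has1 and Has2 were at -0.23 and -0.55.

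**Figure D3:**
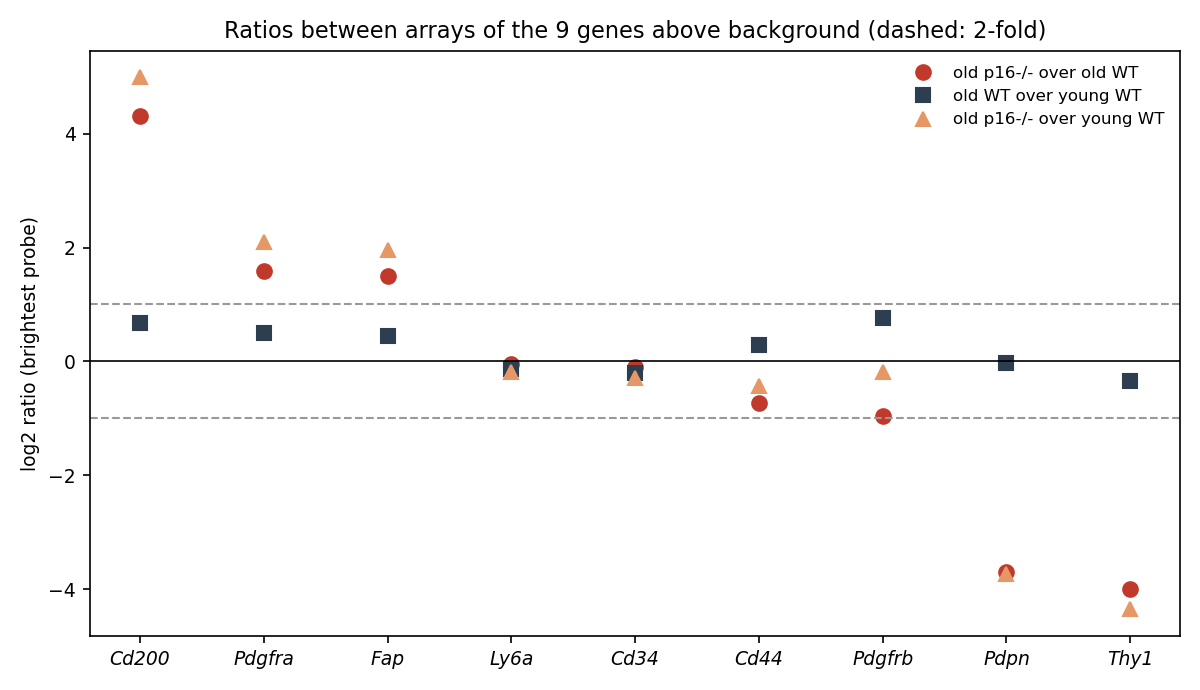
Log2 ratio (brightest probe) of the 9 genes above background for old p16-/- over old WT (circles), old WT over young WT (squares) and old p16-/- over young WT (triangles); dashed lines mark 2-fold. Between the WT arrays all 9 genes lie between -0.35 and 0.76, whereas old p16-/- over old WT spans -3.99 (Thy1) to 4.31 (Cd200).

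Set against young WT, old p16-/- gave the same 5 genes past 2-fold, with Cd200, Pdgfra and Fap higher and Thy1 and Pdpn lower, where 6.34% of 14281 genes passed 2-fold upwards and 6.97% downwards. This comparison shares its old p16-/- array with the one against old WT, so they are not independent. Between the WT arrays the 9 genes had a median log2 ratio of 0.29, with 5 above 0 and 4 below, and a median absolute ratio of 0.35, against 0.13 for all genes counted. Pdgfrb at 0.76 was the highest of the 9 and Thy1 at -0.35 the lowest. The comparisons with young WT also differ in sex-linked expression. Xist had a signal of 1387 on old p16-/-, 1548 on old WT and 14 on young WT, where it was not well above background, and the Y-linked Ddx3y had 12, 9 and 3949. The part of this difference in the values was not tested.

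**Figure D4:**
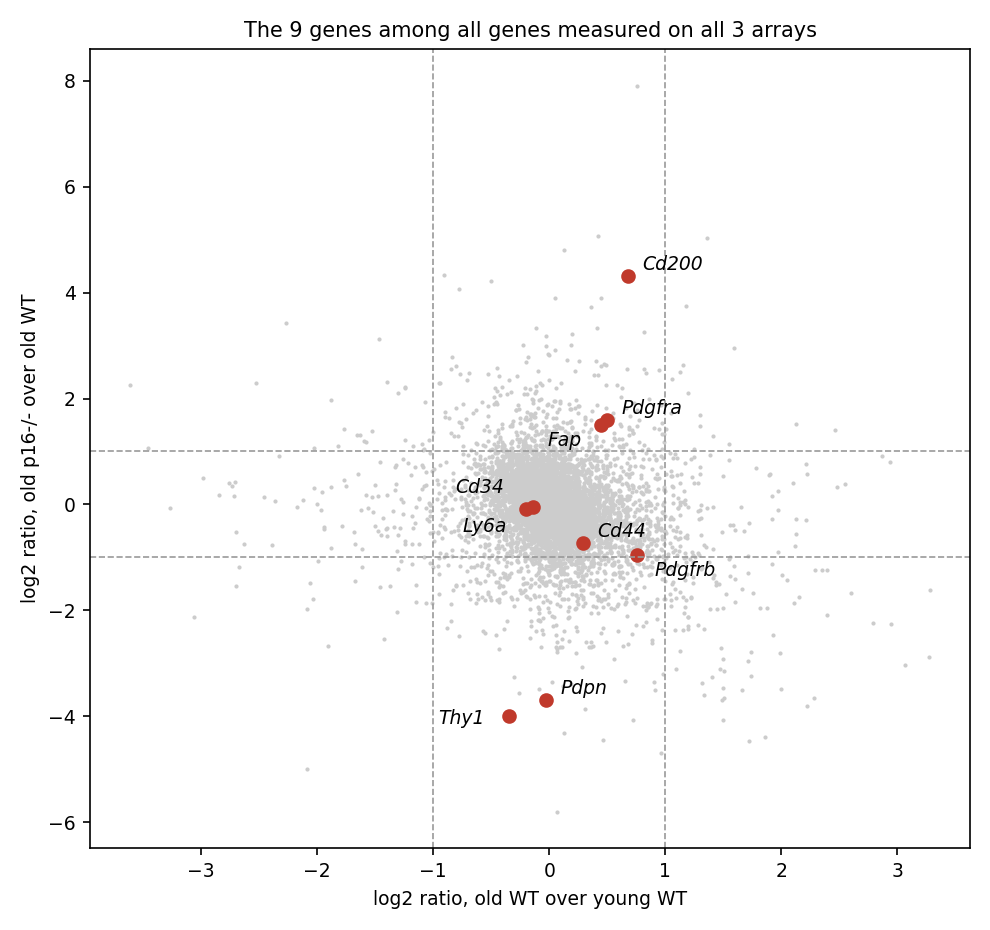
Each grey point is 1 of the 12887 genes well above background on all 3 arrays, with the log2 ratio of old WT over young WT on the x axis and of old p16-/- over old WT on the y axis; red points are the 9 surface markers and dashed lines mark 2-fold. The axes share the old WT array, which enters them with opposite signs. Thy1 and Pdpn lie at the lower edge and Cd200 near the upper edge, and the 9 genes stay within 2-fold along x.

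The genes whose pattern was most like that of Thy1 were found by the distance between pairs of log2 ratios (old p16-/- over old WT, and old WT over young WT) among 12381 genes. Nearest was Pop4, which encodes a subunit of ribonuclease P, at a distance of 0.43, with signals of 1730 on old p16-/-, 20440 on old WT and 25471 on young WT. Pdpn followed at 0.44, then Asb5 at 0.58 with signals of 84, 934 and 1040. Aph1b was at 0.59, but its second probe gave a ratio of only -0.49 between the old arrays. Nearest to Pdgfra were Ifi209 (0.02), Exd1 (0.05), Fry (0.06) and P2rx7 (0.07). The ATP-gated channel gene P2rx7 had a ratio of 1.53 between the old arrays, and its other probes gave 1.34 and 1.32. The other probes of Ifi209 disagreed in sign, at -1.52 and 2.35, and the second probe of Fry was not well above background. Nearest to Cd200, chosen for this search after its values were seen, was Stac at 0.47, with signals of 5017 on old p16-/-, 335 on old WT and 255 on young WT, followed by the protease inhibitor genes Serpina3n (0.74) and Serpina3b (0.75) and the deiodinase gene Dio2 (0.76). Likeness over 3 arrays is a description of these arrays.

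Promoter sequence is shown for Pdpn, the gene of the lower pair for which an entry was at hand, and for Cd200 and Pdgfra, which were higher on old p16-/-. Each is the 250 bases before the annotated start in RefSeq's GRCm38.p6 annotation, read 5′ to 3′ on the gene's strand. Pdpn lies at chr4:143299565-143299814 (minus strand), Cd200 at chr16:45409054-45409303 (minus strand) and Pdgfra at chr5:75152001-75152250 (plus strand). Capitals mark a GC box.
Pdpn: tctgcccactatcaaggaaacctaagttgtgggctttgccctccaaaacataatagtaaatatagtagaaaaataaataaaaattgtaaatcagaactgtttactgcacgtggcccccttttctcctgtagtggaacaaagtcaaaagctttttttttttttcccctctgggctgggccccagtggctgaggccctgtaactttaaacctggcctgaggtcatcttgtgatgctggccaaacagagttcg
Cd200: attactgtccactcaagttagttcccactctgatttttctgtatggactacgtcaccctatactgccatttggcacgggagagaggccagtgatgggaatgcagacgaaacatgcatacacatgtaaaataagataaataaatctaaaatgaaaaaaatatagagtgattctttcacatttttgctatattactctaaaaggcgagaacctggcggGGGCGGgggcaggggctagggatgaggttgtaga
Pdgfra: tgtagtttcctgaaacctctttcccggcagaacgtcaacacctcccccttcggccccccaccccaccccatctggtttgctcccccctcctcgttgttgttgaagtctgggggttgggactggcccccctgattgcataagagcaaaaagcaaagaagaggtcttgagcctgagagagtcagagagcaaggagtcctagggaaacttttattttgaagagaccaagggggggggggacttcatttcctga

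These windows were searched on both strands for GGGCGG (the GC box), CCAAT (the site of NF-Y), TATAAA (the TATA box), TGANTCA (the AP-1 site) and CACCTG (an E-box). The search found a GC box that starts 34 bases before the annotated start of Cd200, and none of the other motifs in any of the 3 windows, so no hits overlapped. In 32851 promoter windows of the same length the share with the motif was 32.7% for the GC box, 33.8% for the NF-Y site, 12.4% for the TATA box, 6.75% for the AP-1 site and 17.2% for the E-box. The windows held 2 CpG dinucleotides in Pdpn, 6 in Cd200 and 4 in Pdgfra, against a median of 6 over all windows. A GC content of 43.2% in Pdpn, 42.4% in Cd200 and 54.4% in Pdgfra stood against a median of 52.4%. Windows were read for 6 of the 10 genes, and any entry on chromosome 18, which holds Pdgfrb, was left out of this reading.

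Genes of fibroblast identity were compared between the old arrays. Of 20, read by their brightest probes, none passed 2-fold upwards and 2 passed it downwards on old p16-/-, set against old WT, where 5.85% and 6.63% of all genes did. Their median log2 ratio was -0.14, against 0.02 for all genes counted. Of the 20, 16 lay below 0, some of them, such as Vim and Col1a2, by less than the spot-to-spot error. Col1a1 had a signal of 130176 on old p16-/-, 159574 on old WT and 171773 on young WT, and Vim 201003, 204077 and 215385. The elastic-fibre gene Mfap5 was at -1.85, with signals of 13255 on old p16-/-, 47493 on old WT and 49077 on young WT, and the collagen gene Col5a1 at -1.12. Col1a1, Col1a2 and Vim were at -0.30, -0.06 and -0.03, and the collagen gene Col5a2, the highest of the list by brightest probe, at 0.88. Second probes passed 2-fold for Sparc (-1.15, against -0.05 by the brighter probe) and Tcf4 (1.17, against 0.76).

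A wider list of 30 surface proteins of fibroblasts held 1 gene past 2-fold upwards and 4 past it downwards on old p16-/-, set against old WT. Over all genes counted the shares were 5.85% and 6.63%. The median log2 ratio of the list was -0.18. Higher was Nt5e (CD73), an ectonucleotidase, with a signal of 9347 on old p16-/-, 3810 on old WT and 1498 on young WT. Its ratio was 1.29 between the old arrays and 1.41 for old WT over young WT. Among the lower ones were Cd248 (endosialin) at -1.32, the tissue factor gene F3 at -1.28 (-1.12 by a second probe) and the fibronectin receptor subunit Itga5 at -1.20. The tetraspanins Cd9 and Cd81 were at 0.13 and 0.06.

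**Figure D5:**
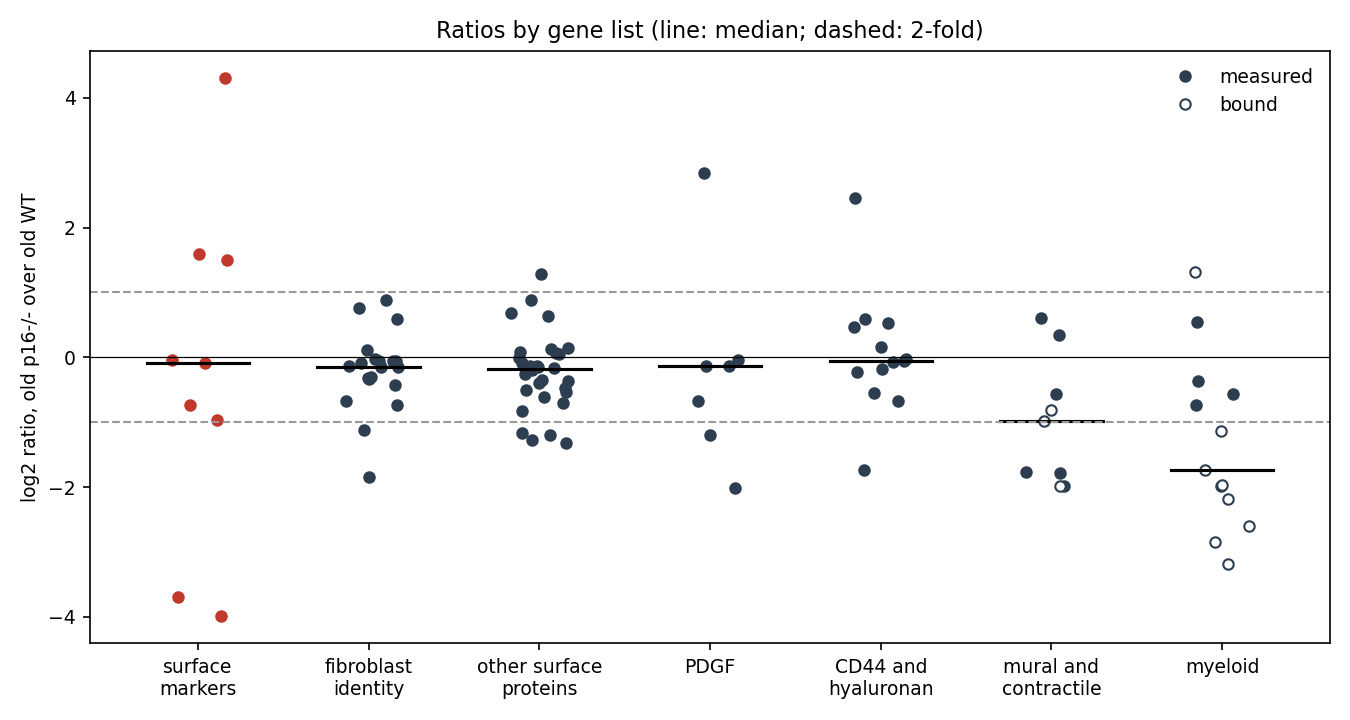
Log2 ratio of old p16-/- over old WT for the 9 surface markers and 6 gene lists. Each point is 1 gene, open points are bounds (1 of the arrays not well above background), black lines are medians and dashed lines mark 2-fold. The surface markers span -3.99 to 4.31 around a median of -0.09, the fibroblast identity genes span -1.85 to 0.88, and the myeloid genes have a median of -1.73.

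Genes for proteins that bind the surface markers were counted for 12 of 15 on the array. On old p16-/-, set against old WT, none passed 2-fold upwards and 1 passed it downwards, where 5.85% and 6.63% of all genes did. The integrin genes Itgav, Itgb3 and Itgb5, whose products bind Thy1, were at 0.18, -0.37 and 0.22, and a second probe gave the opposite sign for Itgav (-0.31) and Itgb3 (0.10). The lower one was the caveolin gene Cav1 at -1.33. Cxcl12, a chemokine that Dpp4 cleaves, was at -0.27 between the old arrays (-1.36 by a second probe) and at 1.07 for old WT over young WT.

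Between the old arrays the markers of papillary fibroblasts went both ways, and 6 of 7 adventitial and hypodermal markers lay below 0. Over all genes counted, 5.85% were at least 2-fold higher on old p16-/- than on old WT and 6.63% lower. Of 7 papillary genes counted, 1 was at least 2-fold higher on old p16-/- than on old WT, the Wnt effector Lef1 at 1.79, and 1 lower, the Wnt target Axin2 by a bound of -1.70. Between the WT arrays the Wnt inhibitor Wif1 was at 2.94 and the retinoid-binding Crabp1 at -1.40. Of 7 adventitial and hypodermal genes counted, 3 were at least 2-fold lower on old p16-/- than on old WT and 0 higher. They were the mineralisation inhibitor Mgp at -1.80, Dlk1 at -1.55 and the glutathione peroxidase gene Gpx3 at -1.43. Dlk1 was at -1.37 and Gpx3 at 2.05 for old WT over young WT. Cd34 and Ly6a, used as markers of the same layer, were at -0.09 and -0.04 between the old arrays.

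Surface proteins gained on the way to pluripotency were counted for 11 of 14 listed genes, with a median log2 ratio of old p16-/- over old WT of 0.50. Those at least 2-fold higher were the tight-junction gene Cldn3, at 1.90 with a signal of 532 on old p16-/-, 141 on old WT and 247 on young WT, and Fut9, by a bound of 1.12. Over all genes counted, 5.85% were at least 2-fold higher in this comparison. The alkaline phosphatase gene Alpl was at 0.75, Epcam at 0.50, Fut4, whose enzyme can make the SSEA-1 antigen, at -0.13, and the E-cadherin gene Cdh1 at -0.98 with signals of 88 on old p16-/- and 173 on old WT. Ocln, a tight-junction gene, was lower on old WT than on young WT by a bound of -2.0.

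Other cell types that carry some of the same surface proteins also differed between arrays. Of 14 myeloid genes, 6 were well above background on old p16-/-, 12 on old WT and 12 on young WT, and their summed level, in units of each array's 75th percentile, was 8.75, 12.4 and 18.2. Itgam weighed most in these sums, with signals of 14934, 19071 and 19992 in that order and a ratio of -0.36 between the old arrays. The sums thus understate how far most of the other myeloid genes differed. Of 13 myeloid genes counted between the old arrays, 8 were at least 2-fold lower on old p16-/-, where 6.63% of all genes were. Among them were Lyz2 (-3.18), Tyrobp (-2.85), C1qc (-2.60) and C1qb (-2.18), all by bounds, and Ptprc was higher by a bound of 1.32. For old WT over young WT, 10 of 12 were at least 2-fold lower, where 3.16% of all genes were, with Adgre1 at -2.83 and Cd52 at -2.39. Mural and contractile genes had 6, 9 and 8 of 11 above background and a summed level of 72.2 on old p16-/-, 196 on old WT and 166 on young WT. Of 9 counted between the old arrays, 4 were at least 2-fold lower on old p16-/- and 0 higher, where 6.63% and 5.85% of all genes were. These were Acta2 at -1.98, Cnn1 at -1.79, Tagln at -1.76 and Abcc9 at a bound of -1.99. Acta2 and Tagln weighed most in the sums. Cspg4 and Mcam went the other way, at 0.60 and 0.34, with signals of 15936 and 30906 on old p16-/-. A second probe of Mcam was too dim for a ratio. Abcc9 was higher on old WT than on young WT by a bound of 1.80. The part of these cells or states in the ratios of Thy1, Pdpn and the other surface markers was not tested.

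The remaining cell types were summed in the same way. Of 9 T-cell genes, 4, 4 and 3 were above background on old p16-/-, old WT and young WT, with a summed level of 2.12, 1.99 and 1.85. Cd4 had a signal of 2768, 2961 and 2803 on these arrays and Cd3e 1232, 928 and 977. A second probe of Cd4 was too dim for a ratio. Cd8a, Cd3g, Cd3d, Cd2 and Zap70 stood well above background on no array, and Lck was at 1.80 between the old arrays with a signal of 233 on old p16-/-. Endothelial genes had 5, 6 and 5 of 12 above background and a summed level of 4.63, 4.73 and 4.82, with Cdh5, Tie1, Emcn and Cldn5 among those above it on no array. Kdr had a signal of 6167, 6041 and 5830 by its brighter probe. Its second probe gave -0.50 for old p16-/- over old WT and -0.74 for old WT over young WT. Keratinocyte genes had 6, 7 and 6 of 10 above background and a summed level of 16.3, 11.3 and 11.2. Pkp1 (signals of 17998, 10532 and 10013), Dsp (5997, 3670 and 3415) and Trp63 (5124, 5725 and 5963) weighed most in these sums. For old p16-/- over old WT, 4 of 7 counted lay above 0 and 3 below. Krt14, Pkp1 and Dsp were at 0.81, 0.77 and 0.70, Trp63 at -0.17 (1.24 by a second probe), and Ivl was lower by a bound of -1.23. Genes of Schwann cells, melanocytes and neurons had 8 of 11 on each array and a summed level of 23.3, 21.7 and 22.4, with S100b at 2.10, Ngfr at 1.43 and Mbp at -1.13 for old p16-/- over old WT, and S100b and Ngfr at 1.2 and 1.01 for old WT over young WT. Pmp22 (signals of 19051, 17706 and 21018), Snap25 (10951, 14328 and 14776) and Tubb3 (6657, 7483 and 9558) weighed most in this sum. Adipocyte genes had 3 of 8 on each array and 2.98, 2.06 and 1.74, with the lipase gene Lpl at 2.78 (1.73 by a second probe) for old p16-/- over old WT.

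Cdkn2a itself had a signal of 28065 on old p16-/-, 65464 on old WT and 62705 on young WT. Its probes are not known to lie in the deleted part of the gene, so this signal does not check the genotype.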

How the data were processed

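The authors deposited 1 scanner file per group, with linear spot intensity values from Agilent Feature Extraction 11.5.1.1 (1 colour, Cy3; probe design on mm9), per the file headers. All 3 arrays lay on 1 slide and were read in 1 scan. The deposited series value table held the same intensity values for 39030 of 39030 probes printed once (tolerance 0.0001, relative). Control spots (1377) and spots marked as non-uniform or population outliers (267 on old p16-/-, 246 on each WT array) were left out, and no spot was saturated. Spots of the same probe were averaged as log2 processed signal, and the 75th percentile of 39279 probes was taken off within each array. RefSeq accessions named 27508 of 39429 probes; the gene table is of GRCm38.p6 and served for names and order only. The brightest probe stood for its gene. A gene counted in a comparison where any of its probes was well above background on 1 or both arrays. Where this held for 1 array only, the ratio is a bound, with the dim side set to its own level or to the lowest level called above background there, whichever was higher, and a bound that turned past 0 was set to 0. Level sums are over brightest probes.

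The genes and lists were chosen with earlier results of these data known. Of 207 list entries, 205 were on the array. Named from each list were up to 4 genes with the largest ratio past 2-fold between the old arrays and up to 2 between the WT arrays, besides the 4 genes most like Thy1 and Pdgfra, and chromosomal neighbours. Other genes named by their role (such as Podxl, the integrins, Has1, Alpl, Epcam, Cd9 and the proteases) fell outside this rule and were chosen after their values were seen. One gene that the rule names is not reported here. Fixed alternatives were normexp background correction (offset 50, limma 3.58.1; on the median spot signal, since the files used here hold no mean signal column), quantile, cyclic loess and median scaling, other filters on dim probes, the mean of all probes, marked spots kept, the value table, and 1.5-fold as the limit. The ratio script was tested on simulated data.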

Additional observations from a re-analysis of the deposited data

How the results depend on the processing

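The 5 genes at least 2-fold apart between old p16-/- and old WT (Thy1, Pdpn, Pdgfra, Fap and Cd200) kept their direction and stayed past 2-fold under all 10 alternatives. Several of these could not move them. The value table holds the same intensities, and the filters on dim probes leave the ratio of a counted gene above background on both arrays as it is. The mean of all probes changes nothing for Thy1, Pdgfra, Fap and Cd200, which have 1 probe each. The ranges were -4.07 to -3.94 for Thy1, -3.79 to -3.39 for Pdpn, 1.5 to 1.64 for Pdgfra, 1.46 to 1.55 for Fap and 3.82 to 4.36 for Cd200. The same held against young WT, where Thy1 ranged from -4.39 to -4.32 and Cd200 from 4.16 to 4.99. With 1.5-fold as the limit, 4 genes were lower on old p16-/- than on old WT (Pdgfrb and Cd44 joined), and 2 were higher on old WT than on young WT (Pdgfrb at 0.76 and Cd200 at 0.68). The median ratio of the 9 genes for old p16-/- over old WT was -0.18 with quantile and -0.20 with cyclic loess normalization. That for old p16-/- over young WT was -0.28 with quantile normalization. That for old WT over young WT was 0.13 with no filter on dim probes (Dpp4 then counted), 0.18 with the mean of all probes, and -0.08 where the brighter of both arrays had to reach a signal of 1000, so that Pdgfra, Fap and Cd200 were not counted. The other causes were not tested. Genes at least 2-fold apart over the whole array changed in number with the filter and the background model. For old p16-/- over old WT they numbered 860 higher and 974 lower, against 565 and 651 with normexp, 547 and 670 above background on both arrays, 234 and 374 at a signal of at least 1000, and 1295 and 1623 with no filter. For old WT over young WT they numbered 428 and 460, against 256 and 267, 238 and 219, 103 and 49, and 908 and 787 in the same order. For old p16-/- over young WT they numbered 906 and 996, against 604 and 699, 562 and 649, 303 and 373, and 1438 and 1509. No paired analysis was possible because each group has 1 array. Thy1, Fap and Cd200 each rest on 1 spot per array, and Cd200 on the WT arrays lies close to the background, which limits its ratio.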
